A study of Mus musculus with 24 samples.

Results

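The 8 erythroid genes described here are Epor, Klf1, Alas2, Hba-a1, Hbb-b1, Beta-s, Slc4a1 and Car2, taken by their symbols from the 23361 gene rows of a table of FPKM (fragments scaled to the length of the gene and to the mapped fragments of the library). The samples were acute myeloid leukaemia cells from mouse spleens, all of the genotype NRASG12V/Mll-AF9, an activated RAS protein together with a fusion of the histone methyltransferase MLL to AF9, in an F1 cross written (FVB/n X C57/BL/6J). Leukaemia cells were sequenced unsorted (5 libraries) or after sorting on Mac-1 (Itgam, a myeloid integrin), Kit (the receptor of stem cell factor) and Sca-1 (Ly6a, a surface protein of blood stem cells). The sorted groups were MacHigh (5 libraries), MacLowKit-Sca1- (5), MacLowKit+Sca1- (5) and MacLowKit+Sca1+ (4), and the MacLow groups are shortened below to Kit-Sca1-, Kit+Sca1- and Kit+Sca1+. Age, sex and treatment are not given in the sources used here, every group carries both oncogenes, and no normal spleen or bone marrow was in the design. The labels do not say whether replicates were separate mice, so a p-value below refers to the spread between libraries, which may be technical.

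Red cells arise from progenitors that depend on the hormone erythropoietin. Its receptor, Epor, signals through the kinase Jak2 and the transcription factor Stat5, and the transcription factors Gata1, Tal1 and Klf1 then switch on the genes of haemoglobin, heme synthesis and the red cell membrane. In the mouse the spleen makes red cells as well as destroying old ones, and its red pulp macrophages take up senescent red cells and recycle their iron. Epor and Klf1 act early in this programme, Alas2 makes the first intermediate of heme in red cell precursors, the globins are its most abundant late product, Slc4a1 (band 3) is the anion exchanger of the red cell membrane, and Car2 is a carbonic anhydrase that red cells share with other tissues.

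All 8 genes were highest in unsorted cells, by group mean and in every one of the 5 libraries, and each of the 4 sorted groups held only a small part of that level. The mean over unsorted cells exceeded the mean of a sorted group by 4.96-fold (Epor against Kit+Sca1+) to 188-fold (Slc4a1 against Kit+Sca1-). Among the sorted groups Kit+Sca1+ had the highest mean for 7 of the 8, all but Klf1. The FPKM of a library summed to between 445970 and 644381, and 10177 to 11124 rows were at 1 FPKM or more. Read counts were not used here, so the depth behind a value is unknown.

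The cell type in the labels and the name of the gene group were both checked on other markers. Of 13 markers of myeloid leukaemia cells, all 13 had a group mean of 1 FPKM or more in unsorted, Kit-Sca1- and Kit+Sca1+ cells and 12 did in MacHigh and Kit+Sca1- cells. The exceptions were Lyz2, listed at 0.001 in every MacHigh library, and Mpo, listed at 0.001 in every Kit+Sca1- library. Group means elsewhere were 789 to 4569 FPKM for Lyz2 and 111 to 2147 for Mpo. Whether 0.001 is a measured 0 in these libraries is not given in the sources used here, so absence of either RNA is not shown. The 13 markers include Itgam, the gene of Mac-1, on which the groups were sorted. A level of 1 FPKM is a low bar, met by 10177 to 11124 rows of a library. Leukaemia cells were not told apart from normal myeloid cells by these markers. Of 7 further markers of erythroid cells in the table, all 7 had a mean of 1 FPKM or more in unsorted cells (14.2 to 39.7), whereas 2 of the 7 did in Kit-Sca1- cells and 1 of the 7 in each of the other 3 sorted groups. In bulk RNA of this kind, fewer erythroid cells and less RNA per erythroid cell cannot be told apart.

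The sequence in front of the start site is shown for 5 of the 8 genes. These had an entry in the RefSeq promoter table of GRCm38.p6 (Hbb-b1, Slc4a1 and Car2 had none). Each line gives the 125 bases before the annotated start, 5′ to 3′ on the strand of the gene. Capitals mark CACCC (or GGGTG, the same motif on the other strand), the core of the sites that Klf1 and related factors bind, and GATA (or TATC), the core of the sites of Gata1 and its relatives. The windows lie at chr9:21963577-21963701 (minus strand) for Epor, chr8:84901857-84901981 (plus) for Klf1, chrX:150547292-150547416 (plus) for Alas2, chr11:32283547-32283671 (plus) for Hba-a1 and chr7:103827929-103828053 (minus) for Beta-s, whose row is named Hbb-bs in RefSeq.
Epor: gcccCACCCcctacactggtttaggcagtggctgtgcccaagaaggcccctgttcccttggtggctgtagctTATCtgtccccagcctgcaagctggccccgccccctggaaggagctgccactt
Klf1: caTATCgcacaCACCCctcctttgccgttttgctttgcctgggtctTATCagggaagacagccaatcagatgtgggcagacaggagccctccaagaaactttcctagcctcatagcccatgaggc
Alas2: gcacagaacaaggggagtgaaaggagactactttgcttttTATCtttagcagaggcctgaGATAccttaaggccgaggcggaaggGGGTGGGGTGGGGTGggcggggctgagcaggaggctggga
Hba-a1: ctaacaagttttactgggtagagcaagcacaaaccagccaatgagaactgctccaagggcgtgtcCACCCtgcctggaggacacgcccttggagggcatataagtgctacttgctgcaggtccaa
Beta-s: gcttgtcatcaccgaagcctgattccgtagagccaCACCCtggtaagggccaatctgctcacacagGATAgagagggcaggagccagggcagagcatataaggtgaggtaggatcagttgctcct
The CACCC core was found in 5 of these 5 windows and the GATA core in 4 of 5, with none in the window of Hba-a1. Over 32851 promoter windows of the same length, 32.7% held CACCC, 30.6% held GATA and 8.22% held both, on either strand. In Beta-s the CACCC core began 90 bases before the start and the GATA core 59 bases before it. These matches describe letters only, and binding was not measured in this series.

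Epor (chromosome 9, 21958897 to 21963576 in GRCm38.p6), the erythropoietin receptor, was the member whose level in a sorted group came nearest to that of unsorted cells. Its FPKM in unsorted replicates 1 to 5 were 13.7, 9.04, 6.01, 26.7 and 7.88, and in Kit+Sca1+ replicates 1 to 4 they were 2.5, 4.05, 1.77 and 1.9. All 4 Kit+Sca1+ libraries lay below the lowest unsorted library and above the highest library of every other sorted group. MacHigh replicates 1 to 5 were at 0.179, 0.231, 0.272, 1.48 and 0.144, Kit-Sca1- replicates at 1.09, 0.43, 0.194, 0.391 and 0.159, and Kit+Sca1- replicates at 0.143, 0.161, 0.0192, 0.672 and 0.136. The mean of Kit+Sca1+ cells, 2.55 ± 1.05 FPKM (SD, n = 4), was 20.2% of the unsorted mean of 12.7 ± 8.35 (n = 5), while the other sorted groups were at 3.65% (MacHigh), 3.57% (Kit-Sca1-) and 1.79% (Kit+Sca1-).

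Klf1 (chromosome 8, 84901982 to 84905291), the transcription factor that gives erythroid cells their adult globin programme, did not follow Epor in Kit+Sca1+ cells. Its FPKM in unsorted replicates 1 to 5 were 33.6, 23.3, 17.8, 60.8 and 18.7, and in Kit+Sca1+ replicates 1 to 4 they were 0.462, 1.95, 0.634 and 0.529. MacHigh replicates were at 0.79, 0.328, 0.222, 2.44 and 0.0293, Kit-Sca1- replicates at 1.97, 1.88, 0.59, 1.11 and 0.173, and Kit+Sca1- replicates at 0.481, 0.393, 0.33, 1.51 and 0.301. The 4 sorted groups overlapped with one another, and their means ran from 1.95% of the unsorted mean in Kit+Sca1- to 3.71% in Kit-Sca1-. Most of these values are under 1 FPKM, where the counting error of a single value is not known here.

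Alas2 (chromosome X, 150547417 to 150570622), the erythroid form of aminolevulinate synthase, was at 69.3, 51.5, 18, 113 and 17.1 FPKM in unsorted replicates 1 to 5. Kit+Sca1+ replicates 1 to 4 were at 1.54, 3.25, 3.36 and 1.4, above all libraries of Kit-Sca1- (0.207 to 1.13) and of Kit+Sca1- (0.0767 to 1.3). MacHigh libraries ran from 0.128 to 4.42 and so overlapped with Kit+Sca1+. The highest MacHigh library was replicate 4, and the other 4 were at 0.506 FPKM or less.

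The 3 globin rows were the most abundant members together with Car2. Hba-a1 (chromosome 11, 32283672 to 32284486), an alpha chain of adult haemoglobin, was at 138, 184, 104, 537 and 98.9 FPKM in unsorted replicates 1 to 5 and at 9.34, 32.9, 9.61 and 7.86 in Kit+Sca1+ replicates 1 to 4. MacHigh libraries had it at 1.39 to 26.7, Kit-Sca1- libraries at 0.991 to 8.28 and Kit+Sca1- libraries at 0.252 to 9.41. Hba-a1 in Kit+Sca1+ therefore overlapped with all 3 other sorted groups.

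Beta-s (chromosome 7, 103826523 to 103827928), the beta globin of the haplotype carried by strains such as C57BL/6, was the most abundant of the 8. It was at 1141, 837, 269, 1853 and 311 FPKM in unsorted replicates 1 to 5 and at 24.2, 54.7, 69.3 and 24.9 in Kit+Sca1+ replicates 1 to 4. MacHigh libraries ran from 3.74 to 77.8, Kit-Sca1- libraries from 2.14 to 21.8 and Kit+Sca1- libraries from 1.06 to 21.7. Even the lowest sorted library thus had Beta-s at 1.06 FPKM, and Beta-s was the one member at 1 FPKM or more in all 19 sorted libraries.

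Hbb-b1, a beta major globin row, was at 476, 299.5, 113, 744 and 109 FPKM in unsorted replicates 1 to 5 and at 47.5, 50, 36.8 and 15.1 in Kit+Sca1+ replicates 1 to 4. MacHigh replicates were at 3.94, 4.63, 1.74, 28.6 and 0.966, Kit-Sca1- replicates at 5.02, 7.56, 2.91, 1.99 and 0.000711, and Kit+Sca1- replicates at 2.66, 2.88, 0.623, 10.9 and 1.43. All Kit+Sca1+ libraries were above all Kit-Sca1- and Kit+Sca1- libraries, and 3 of 4 were above all MacHigh libraries. No position is given for Hbb-b1, whose RefSeq entry is not on an assembled chromosome.

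Globin rows carry an uncertainty of their own, because near-identical copies can share or split fragments. In the GENCODE M21 transcripts Hba-a1 and Hba-a2 were 99.8% identical over 538 aligned bases, and Hbb-bs and Hbb-bt 93.2% over 621. Hbb-bt had no matched row among the FPKM values. Identity of Beta-s with the Hbb-b1 and Hbb-b2 rows was not computed. The Hba-a2 row stood at 123 FPKM in unsorted replicate 4, 23.7 in replicate 5 and 8.33 in replicate 3 but at 0.0117 and 0.0113 in replicates 1 and 2, whereas Hba-a1 was at 98.9 FPKM or more in all 5. How the authors' counting divided fragments between such rows is not given in the sources used here, so the split between the globin rows is uncertain.

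Slc4a1 (chromosome 11, 102348820 to 102365281), the anion exchanger of the red cell membrane, was at 144, 102, 34.6, 209.7 and 36.2 FPKM in unsorted replicates 1 to 5. In Kit+Sca1+ replicates 1 to 4 it was at 2.13, 5, 1.73 and 1.05, which was 2.35% of the unsorted mean. MacHigh libraries ranged from 0.251 to 7, Kit-Sca1- libraries from 0.191 to 1.89 and Kit+Sca1- libraries from 0.128 to 1.73, and all 4 sorted groups overlapped.

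Car2 (chromosome 3, 14886269 to 14900770), carbonic anhydrase 2, was at 187, 128, 82.4, 345 and 95.2 FPKM in unsorted replicates 1 to 5. Kit+Sca1+ replicates 1 to 4 were at 11.1, 13.2, 7.27 and 3.99, while MacHigh libraries ran from 0.736 to 13.8, Kit-Sca1- libraries from 1.41 to 5.92 and Kit+Sca1- libraries from 0.99 to 5.79. Kit+Sca1+ had the highest mean of the sorted groups (8.91 ± 4.11, SD, n = 4) but overlapped with each of them.

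**Figure D1:**
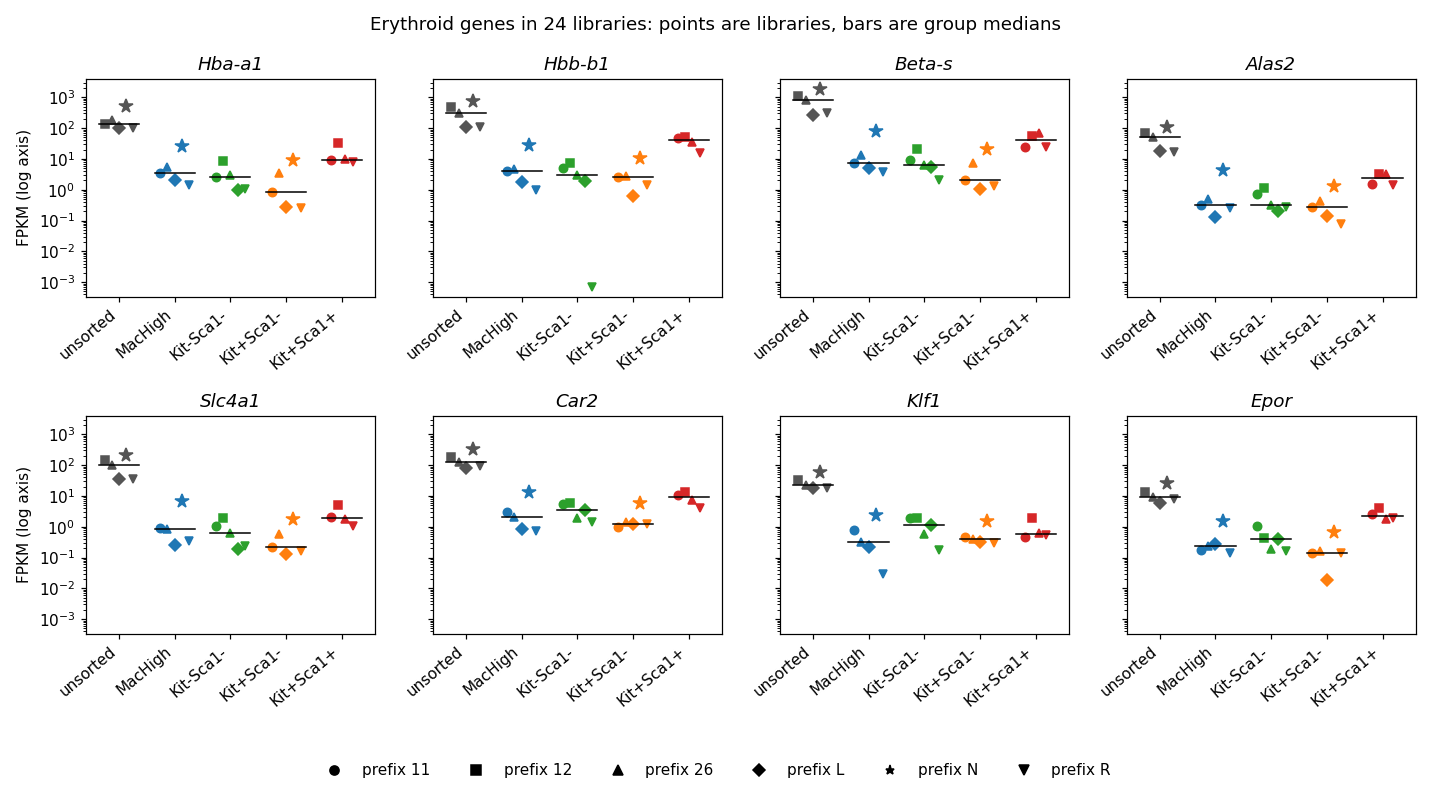
FPKM of the 8 erythroid genes in each of the 24 libraries on a log axis, with one panel per gene, points for libraries, bars for group medians and symbols for the prefix of the sample name (explained in the text). The unsorted libraries sit above all sorted libraries in every panel, and the star of prefix N is the highest point in each group that has one.

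Unsorted cells were compared with each sorted group in 1 linear model over the 24 libraries (limma on log2(FPKM + 1), 11599 rows tested, Benjamini-Hochberg adjusted within a comparison, called at an adjusted p under 0.05). An F test over the 5 groups called all 8 members, and 82.8% of all rows tested. Against MacHigh all 8 were higher in unsorted cells (18.2% of all rows were), with log2 differences from 3.11 (Epor) to 5.8 (Beta-s), and the largest adjusted p was 1.24e-05. All 8 were also higher against Kit-Sca1- (background 8.91%, largest adjusted p 2.76e-06), Kit+Sca1- (background 23.8%, 2.25e-07) and Kit+Sca1+ (background 15.7%, 0.00387, for Hbb-b1).

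The median log2 difference of the 8 members was 5.09 against MacHigh, 5.36 against Kit-Sca1-, 5.78 against Kit+Sca1- and 3.85 against Kit+Sca1+, while the median over all rows tested lay between -0.02 and 0.01. In each of these comparisons the values of all 8 members did not overlap, which held in the same direction for 14.5%, 8.47%, 17.2% and 14.7% of all rows. Unsorted cells had the highest group mean in 3.7% of all rows (429 of 11599). All 8 members would have passed the filter on low values through sorted libraries alone. On the log2(FPKM + 1) scale the difference of low genes such as Epor is understated.

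The sample names in the labels begin with 1 of 6 prefixes (11, 12, 26, L, N and R) that recur across groups, and what a prefix stands for is not stated. Each sorted library was set against the unsorted library of the same prefix where there was one, and the share of the unsorted level kept was taken as the median over the 8 members. It ran from 1.07% to 4.01% in MacHigh (median 1.48%, n = 4 libraries), from 0.978% to 2.53% in Kit-Sca1- (1.55%, n = 4), from 0.471% to 1.57% in Kit+Sca1- (0.948%, n = 4) and from 6.1% to 7.98% in Kit+Sca1+ (6.43%, n = 3). The 3 Kit+Sca1+ libraries were therefore above the other 12.

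Within Kit+Sca1+ the members differed in the share kept. Epor was at 19.5%, 24.1% and 29.6% of its unsorted level and Hbb-b1 at 10.5%, 12.3% and 13.9% (lowest, median and highest). Slc4a1 was at 1.7%, 2.89% and 3.48% and Klf1 at 2.72%, 2.82% and 5.8%. The lowest share for Epor was thus above the highest for Slc4a1 and Klf1.

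**Figure D2:**
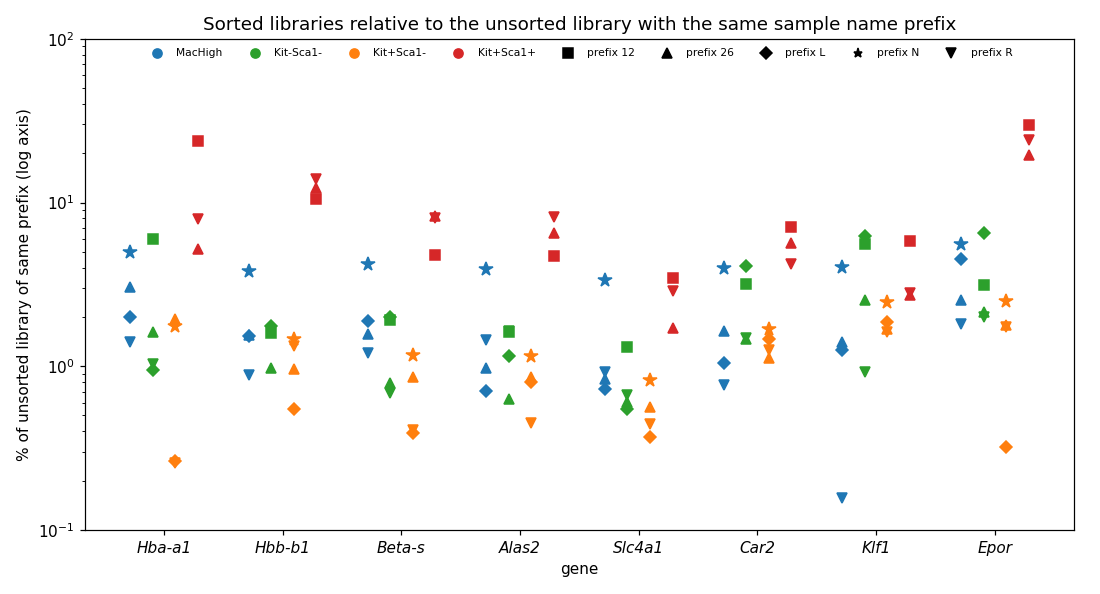
Level of each erythroid gene in each sorted library as a percentage of the unsorted library with the same sample name prefix, on a log axis, with colours for sorted groups and symbols for prefixes (Hbb-b1 in Kit-Sca1- prefix R, listed at 0.000711 FPKM, falls below the axis). Most points of MacHigh, Kit-Sca1- and Kit+Sca1- lie at a few percent or less, and the 3 Kit+Sca1+ points for Epor lie between 19.5% and 29.6%.

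Among the sorted groups, Kit+Sca1+ cells were set against the other 3. Against MacHigh, 3 of 8 members were higher and 0 lower (23.6% of all rows were higher): Epor by 1.31 ± 0.31 on the log2 scale (SE, limma adjusted p = 0.00136), Hbb-b1 by 2.71 ± 0.74 (adjusted p = 0.00486) and Car2 by 1.36 ± 0.54 (adjusted p = 0.0435). Among these 3, the values of Epor alone did not overlap between the groups (18.5% of all rows did not, in this direction). The other 5 members had log2 differences of 0.18 (Klf1, adjusted p = 0.713) to 1.7 (Beta-s, adjusted p = 0.0839). The call of Car2 was lost without any of 7 single libraries (MacHigh replicates 1, 2, 3 and 5, Kit+Sca1+ replicates 1, 2 and 3, adjusted p from 0.0568 to 0.128). Without MacHigh replicate 4, which had the highest MacHigh value for all 8 members, 6 were higher, with Hba-a1, Beta-s and Alas2 added. Without all 3 libraries of prefix N, 7 were. The shares of all rows called in these fits without libraries are not given here.

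Against Kit-Sca1-, 4 of 8 members were higher in Kit+Sca1+ (21.8% of all rows were): Hbb-b1 by 3.28 ± 0.74 (limma adjusted p = 0.00103), Epor by 1.28 ± 0.31 (0.00167), Beta-s by 2.29 ± 0.79 (0.0221) and Hba-a1 by 1.94 ± 0.71 (0.029). Alas2 differed by 1.12 ± 0.47 (adjusted p = 0.0578). The values of 4 members, Hbb-b1, Beta-s, Alas2 and Epor, did not overlap (17.3% of all rows in this direction). Without Kit-Sca1- replicate 5, or without Kit+Sca1+ replicate 2, the calls of Beta-s and Hba-a1 were lost and 2 members remained called. Libraries of 1 prefix deviated together in this comparison, and with the prefix as a block 7 of 8 were higher (26% of all rows), all but Klf1, at -0.2 (adjusted p = 0.336).

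Against Kit+Sca1-, 6 of 8 members were higher in Kit+Sca1+ (26.8% of all rows were), led by Hbb-b1 at 3.26 ± 0.74 (limma adjusted p = 0.000747) and Beta-s at 3.05 ± 0.79 (0.00237). Epor was higher by 1.52 ± 0.31 (adjusted p = 0.000229), Car2 by 1.74 ± 0.54 (0.0092), Hba-a1 by 2.33 ± 0.71 (0.00754) and Alas2 by 1.23 ± 0.47 (0.0315). Slc4a1 (1.13, adjusted p = 0.0762) and Klf1 (0.22, adjusted p = 0.632) were not called, and with the prefix as a block Slc4a1 was (1.09 ± 0.22, adjusted p = 0.000292), which made 7 of 8 (30.3% of all rows). The call of Alas2 was lost with quantile normalization (0.73, adjusted p = 0.191) and without any of 5 single libraries (Kit+Sca1- replicates 1, 3 and 5, Kit+Sca1+ replicates 2 and 3, adjusted p from 0.0529 to 0.087). The same 4 members as against Kit-Sca1- had values that did not overlap (20% of all rows in this direction). These 3 comparisons share the 4 Kit+Sca1+ libraries.

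The 3 comparisons among MacHigh, Kit-Sca1- and Kit+Sca1- called 0 of 8 members each by limma, against 50.8% of all rows in either direction for Kit-Sca1- against MacHigh, 62.8% for Kit+Sca1- against MacHigh and 50.2% for Kit+Sca1- against Kit-Sca1-. At an unadjusted p under 0.05 the counts were also 0 of 8 in each. The differences ran from -1.34 (Beta-s, Kit+Sca1- minus MacHigh, SE 0.75, adjusted p = 0.123) to 0.34 (Klf1, Kit-Sca1- minus MacHigh), and the errors of the globin rows (SE 0.67 to 0.75) leave room for differences of more than 1 on the log2 scale. With the prefix as a block, Klf1 was higher in Kit-Sca1- than in MacHigh (0.45, adjusted p = 0.028, background 28.6%). In the same fit Hba-a1, Beta-s, Car2 and Klf1 were lower in Kit+Sca1- than in Kit-Sca1- (log2 differences -0.65, -1.02, -0.83 and -0.49, background 31.1%). Against MacHigh, that fit called Hba-a1 (-1.09 ± 0.25, limma adjusted p = 0.00088), Beta-s (-1.34 ± 0.27, 0.000219) and Slc4a1 (-0.56 ± 0.19, 0.0152) lower in Kit+Sca1- (background 34%). Hba-a1, Beta-s, Slc4a1 and Epor were lower in Kit+Sca1- in 5 of 5 same-prefix pairs, and Epor was not called (-0.21, adjusted p = 0.289). Over all rows, libraries of 1 prefix did not all deviate together in this comparison (lowest correlation -0.049).

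Libraries with some prefixes were high for many of the 8 genes at once. In unsorted, MacHigh and Kit+Sca1- cells, the 3 groups with a library of prefix N, that library was the highest for 8 of 8 members, and the library of prefix 12 was the highest for 6 of 8 in both Kit-Sca1- and Kit+Sca1+ cells. The 8 members together made up 0.78% of the FPKM sum in the unsorted library of prefix N, 0.425% in that of prefix 12, 0.312% in that of prefix 26, 0.127% in that of prefix R and 0.126% in that of prefix L. In MacHigh the share was 0.0255% for prefix N and 0.00124% to 0.00481% for the other 4. In Kit+Sca1- it was 0.0119% for prefix N and 0.000848% to 0.0035% for the others.

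The members also went up and down together from library to library. Over the 24 libraries the 28 pairs of members had Pearson correlations of log2(FPKM + 1) between 0.88 and 0.99 (median 0.96). Over the 19 sorted libraries they ran from 0.51 to 0.96 (median 0.87), and after subtraction of each group's mean from 0.72 to 0.95 (median 0.87). These are descriptions, since all pairs share the same libraries and their prefixes.

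Genes with the pattern most like that of a member, over the 24 libraries, included other red cell genes. For Klf1 they were Ermap and Tal1 (r = 0.993 each) and Kel (0.991), and for Car2 they included Tal1 (0.972) and Ermap (0.968). Ermap and Kel are membrane proteins of red cells whose human forms carry blood groups, and Tal1 is a transcription factor of blood and erythroid cells. Hbb-b1 and Epor had Atp7b, a copper transporter (0.914 and 0.963), and Fam213a (0.945 and 0.956) in common, with Ank1, the ankyrin of the red cell skeleton, for Hbb-b1 (0.916) and Tmem9 for Epor (0.965). In Kit+Sca1+ cells Fam213a was at 4.78 FPKM on average, Tmem9 at 2.79 and Atp7b at 1.22, above their means in the other sorted groups. Tal1 was also highest there among the sorted groups, at 0.738 against 0.429 to 0.705, while Ermap (0.582) and Kel (0.336) were not. All of these genes were picked by their likeness to members over the same libraries. Their levels in Kit+Sca1+ are therefore not separate evidence.

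The ratio of Epor to Klf1 does not depend on how a library is scaled, and it was examined after the values had been seen. It was 0.407, 0.389, 0.337, 0.439 and 0.421 in unsorted replicates 1 to 5 and 5.41, 2.08, 2.79 and 3.6 in Kit+Sca1+ replicates 1 to 4. No Kit+Sca1+ library overlapped with unsorted cells, Kit-Sca1- (0.229 to 0.917) or Kit+Sca1- (0.0582 to 0.453). It overlapped with MacHigh (0.227 to 4.89), whose highest ratio was in replicate 5, where Klf1 was at 0.0293 FPKM. The Kit+Sca1+ ratios also rest on low Klf1, at 0.462, 1.95, 0.634 and 0.529 FPKM in replicates 1 to 4. The lowest Kit+Sca1- ratio rests on Epor at 0.0192 FPKM. No test is given, since these genes were paired after their values were seen.

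The ratio of Hbb-b1 to Beta-s, also chosen after the values had been seen, is given as a description too. The symbols stand for beta globins of different haplotypes of the locus, and how fragments shared by such rows were divided is not given, so the ratio need not be one between 2 separate genes. Identity between these rows was not computed. It was 0.417, 0.358, 0.421, 0.402 and 0.349 in unsorted replicates 1 to 5 and 1.96, 0.915, 0.531 and 0.607 in Kit+Sca1+ replicates 1 to 4. The groups did not overlap, and neither did Kit+Sca1+ and MacHigh (0.258 to 0.516). Kit-Sca1- (0.346 to 0.532, with replicate 5 left out because Hbb-b1 was listed there at 0.000711) overlapped with Kit+Sca1+, and so did Kit+Sca1-, which reached 1.31.

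**Figure D3:**
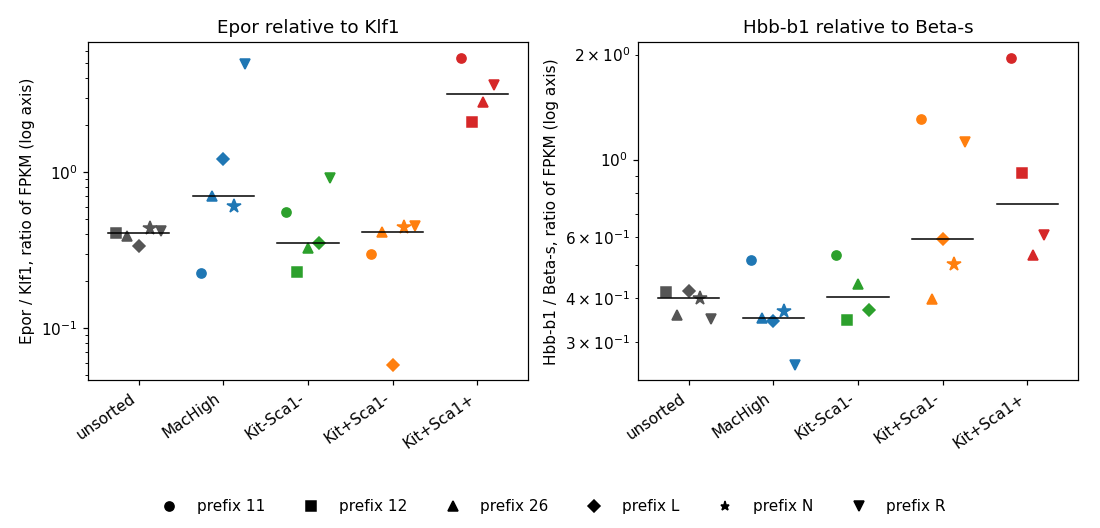
Ratio of the FPKM of Epor to Klf1 (left) and of Hbb-b1 to Beta-s (right) in each library, on log axes, with bars at group medians and symbols for prefixes. Epor to Klf1 is 2.08 or more in all 4 Kit+Sca1+ libraries and at most 0.439 in unsorted cells, and Hbb-b1 to Beta-s is 0.531 or more in Kit+Sca1+ and at most 0.421 in unsorted cells.

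The wider erythroid programme was read from 7 lists of other genes, 83 of which were tested. In unsorted cells against MacHigh, 61 of the 83 were higher and 7 lower (18.2% and 21.3% of all rows). Against Kit-Sca1- the counts were 58 and 0 (8.91% and 5.67%), against Kit+Sca1- 62 and 6 (23.8% and 23.6%), and against Kit+Sca1+ 58 and 5 (15.7% and 17.2%). The median log2 difference of the 83 was between 1.12 and 1.31 in these 4 comparisons, below the medians of the 8 members.

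Genes of the red cell membrane and skeleton followed the members most closely. In unsorted cells 18 of 19 were higher than in MacHigh (18.2% of all rows were), with a median log2 difference of 3.23. Against Kit-Sca1- 19 of 19 were higher (8.91% of all rows). Rhd, an Rh blood group protein, was at 35.2 ± 16.4 FPKM in unsorted cells (SD, n = 5) against group means of 1.13 to 1.67 in sorted cells. Aqp1, the water channel of red cells, was at 54.2 ± 25.9 against 0.688 to 2.32.

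Genes of terminal maturation were higher in 13 of 14 against MacHigh (median 1.88, 18.2% of all rows). Against Kit+Sca1- 10 were higher and 2 lower (23.8% and 23.6% of all rows). The sums of the 14 overlapped there, with 558 to 986 FPKM in unsorted libraries and 553 to 757 in Kit+Sca1-. Nxpe2 was at 8.48 ± 3.98 FPKM in unsorted cells and at 0.195 to 0.707 in the means of sorted groups. Of the red cell enzymes 7 of 10 were higher in unsorted cells than in MacHigh (median 0.86, 18.2% of all rows). Pklr, the pyruvate kinase of red cells and liver, was at 17.3 ± 11.3 against 0.244 to 0.443 FPKM, and Blvrb, biliverdin reductase B, at 82.3 ± 42 against 6.34 to 38.3.

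Heme synthesis was higher in 12 of 13 genes against MacHigh (18.2% of all rows), with a median of 1.09. Against Kit+Sca1- 10 were higher and 1 lower (23.8% and 23.6% of all rows). The sums of the 13 overlapped there, with 506 to 961 FPKM in unsorted libraries and 549 to 699.8 in Kit+Sca1-. Alad, which makes porphobilinogen, was at 28.6 ± 14.8 FPKM in unsorted cells and 4.03 to 11 in the means of sorted groups. Alas1, the form of aminolevulinate synthase found in all tissues, went another way than Alas2 and was highest in Kit+Sca1- (263 ± 48.8 FPKM, against 81.5 ± 19.8 in unsorted cells). That difference was -1.69 ± 0.24 for unsorted minus Kit+Sca1- (limma adjusted p = 4.14e-06).

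Of the erythroid transcription factors and cofactors 8 of 14 were higher and 2 lower against MacHigh (18.2% and 21.3% of all rows), with a median of 0.41. Tal1 behaved like Klf1 (14.9 ± 7.82 FPKM in unsorted cells, 0.429 to 0.738 in sorted means), whereas Bcl11a, a repressor of fetal globin that other blood cells also use, was highest in Kit+Sca1+ (22.2 ± 3.93, against 13.4 ± 3.25 in unsorted cells). Genes of erythropoietin receptor signalling, most of which serve many cytokine receptors, were higher in 1 of 10 and lower in 5 of 10 against MacHigh (median -0.25). The shares of all rows there were 18.2% and 21.3%. Against the other sorted groups the counts differed. Higher and lower in unsorted cells were 3 and 0 against Kit-Sca1- (median 0.22, 8.91% and 5.67% of all rows) and 5 and 0 against Kit+Sca1- (0.63, 23.8% and 23.6%). Against Kit+Sca1+ they were 1 and 1 (0.11), beside 15.7% and 17.2% of all rows, so no direction is read from them. Jak2, the kinase that Epor uses, averaged 59.5 ± 5.18 FPKM in the Kit+Sca1+ libraries and 29.6 ± 1.02 in unsorted ones, and Lyn averaged 214 ± 19.8 in MacHigh and 118 ± 6.96 in unsorted cells.

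Among the remaining globin rows, 3 were tested and 2 were higher in unsorted cells than in MacHigh (18.2% of all rows were). Hbb-y, an embryonic beta-like globin, was at 44.2 and 56.8 FPKM in unsorted replicates 1 and 4 but at 0.393, 2.5 and 1.9 in replicates 2, 3 and 5. The 2 high libraries of Hbb-y are of prefixes 12 and N, which also had the highest Hbb-b1 and Beta-s. Hbb-b2 had 2.76 to 7.28 FPKM in 3 unsorted libraries and was listed at 0.001 in the other two, and every Kit+Sca1- library was at 0.001 or below.

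Between Kit+Sca1+ and MacHigh the other erythroid genes were split: 14 of the 83 genes were higher and 14 lower (23.6% and 22.4% of all rows), with a median of 0.11. In the membrane list 3 of 19 were higher, Tspan33 (2.09), Xk (0.94) and Gypc (0.6), and Tmod1 was lower (-1.77). In heme synthesis 1 of 13 was higher, Alad (1.27 ± 0.23, limma adjusted p = 0.000121). Gata1 (-0.07, adjusted p = 0.889), Tal1 (0.29, adjusted p = 0.412) and Rhag (-0.06, adjusted p = 0.921) were not called, so Epor, Hbb-b1 and Car2 were called without most of the red cell genes of the lists. Tspan33, Xk, Gypc, Tmod1, Gata1 and Rhag are named here after their values were seen.

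**Figure D4:**
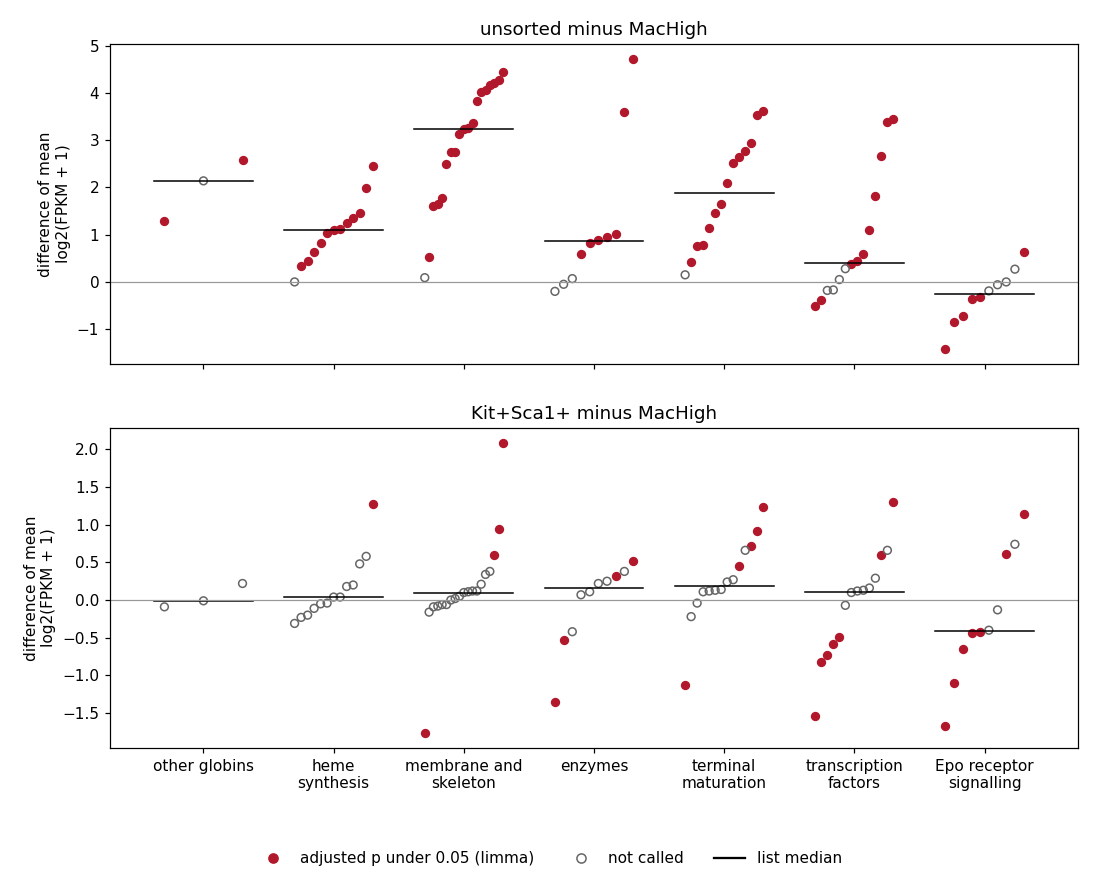
Differences of mean log2(FPKM + 1) for the genes of the 7 erythroid lists (members left out), for unsorted minus MacHigh (top) and Kit+Sca1+ minus MacHigh (bottom), with filled points for an adjusted p under 0.05 in limma and lines at list medians. In the top panel 61 of 83 genes are higher in unsorted cells and the membrane list has the highest median (3.23), and in the bottom panel 14 are higher and 14 lower, with list medians near 0 apart from receptor signalling.

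Markers of other cell types moved with some of these groups, and their part in the results was not tested. Kit+Sca1+ libraries had the highest summed level of 13 markers of red pulp macrophages, which engulf red cells: 953 to 2536 FPKM, against 689 to 1215 for MacHigh, 496 to 626 for unsorted cells, 87.4 to 181 for Kit-Sca1- and 90.2 to 136 for Kit+Sca1-. Of the 13, 8 were higher and 2 lower in Kit+Sca1+ than in MacHigh (23.6% and 22.4% of all rows). In Kit+Sca1+ 12 were higher than in Kit-Sca1- (21.8% of all rows) and 13 than in Kit+Sca1- (26.8%). C1qb, a complement subunit, averaged 199 ± 80.9 FPKM in the Kit+Sca1+ libraries and 112 ± 39 in those of MacHigh, and Hmox1, heme oxygenase 1, averaged 226 ± 60.6 and 467 ± 134.

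Megakaryocytes share a progenitor with red cells, and their 13 markers summed to 32.8 to 155 FPKM in unsorted libraries against 6.69 to 48.8 in all sorted libraries. Of 9 tested, 7 were higher in unsorted cells than in MacHigh (18.2% of all rows were). Ppbp, a platelet chemokine, was at 13.8 ± 7.87 FPKM in unsorted cells and at 0.451 to 1.93 in the means of sorted groups. Pf4 was at 40 ± 23.1 in unsorted cells and 25.8 ± 12.5 in MacHigh, a difference that was not called (0.58, limma adjusted p = 0.39). Basophil and mast cell markers (8 genes) summed to 80.3 to 94 in unsorted cells and 34.3 to 51.8 in Kit+Sca1+, with Hdc at 46.5 ± 11.5 and 23.1 ± 17 and Mcpt8 at 26.6 ± 8.22 and 12.6 ± 7.01. T cell markers (8 genes) summed to 14.9 to 21.5 in unsorted cells and 33.9 to 63.4 in Kit+Sca1+, with Cd8a at 1.91 ± 0.601 and 27.4 ± 11.2 and Cd3d at 9 ± 1.89 and 1.67 ± 1.16. Cd8a was the largest part of the Kit+Sca1+ sum. Of 6 tested, 1 was higher and 5 lower in unsorted cells than in Kit+Sca1+ (15.7% and 17.2% of all rows). B cell markers (8 genes) summed to 16.7 to 30.9 in all groups, most of it Cd79b, while Ms4a1 was at 0.368 ± 0.173 in unsorted cells and 1.52 ± 0.684 in Kit+Sca1+.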

How the data were processed

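The authors deposited 1 table of FPKM for 24 libraries; TopHat2 2.0.4, Cuffdiff (no version) and mm10 are named per the submitters' processing notes, and the annotation is not given in the sources used here. Groups came from sample titles and 0 columns were left unmapped. Values were tested as log2(FPKM + 1) with limma 3.58.1 in R 4.3.3 (variance trend, all libraries, rows at 1 FPKM or more in at least 4), in 10 pairs of groups and an F test; the script was tested on simulated data. Members and gene lists were chosen with earlier results of these data known. Named genes are the members, the 2 genes of each list with the largest F, the 3 nearest in pattern to 4 members, and the 2 most abundant markers of other cell types. Some genes that this rule names are not reported here. Symbols were matched to RefSeq, 3 by synonym; Ahsp and Hbb-bt were unmatched. Same-prefix libraries deviated together (34 of 38 correlations of deviations over 0.1, mean 0.24, against -0.0476 for others), in every pair for 7 of 10 comparisons. Alternatives were the pseudocount, filters, rescaling, quantile normalization, blocks, 2-group fits and left-out libraries.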

Additional observations from a re-analysis of the deposited data

Results flagged for a closer look

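Of 40 combinations of a member and a group, 8 had 1 library far from the others of its group by Dixon's test. The test flags about 1 in 20 independent sets of values. Members share libraries, and their deviations from group means correlated at 0.72 to 0.95, so the 8 cannot be set against that rate. In MacHigh replicate 4 (prefix N) they were Alas2 at 4.42 FPKM, Slc4a1 at 7.0 and Epor at 1.48. In Kit+Sca1- replicate 4 (prefix N) they were Car2 at 5.79, Klf1 at 1.51 and Epor at 0.672. In Kit+Sca1+ replicate 2 (prefix 12) they were Hba-a1 at 32.9 and Klf1 at 1.95. Each of these values is the highest of its group, and the unsorted libraries of prefixes N and 12 were also the highest and second in rank for Klf1 and Epor.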

How the results depend on the processing

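Over 1846 alternative values of 56 differences of single members (those with unsorted cells, and of Kit+Sca1+ with the other sorted groups; not those among MacHigh, Kit-Sca1- and Kit+Sca1-, given below by counts of members called), 1789 kept their direction and side of the threshold, 32 became called, 22 lost the call and 3 reversed; all 1056 that involve unsorted cells kept direction and call. With the prefix as a replicate block, the members called became 1 (0 without it) for Kit-Sca1- against MacHigh, 3 (0) for Kit+Sca1- against MacHigh, 7 (3) for Kit+Sca1+ against MacHigh, 4 (0) for Kit+Sca1- against Kit-Sca1- and 7 (4) for Kit+Sca1+ against Kit-Sca1-. In 2 of these, Kit+Sca1- and Kit+Sca1+ against MacHigh, libraries of 1 prefix did not all deviate together (lowest correlations -0.049 and 0.0477). With the prefix block 29.4% of all rows were higher in Kit+Sca1+ than in MacHigh, and the other shares are given above. The replicate numbers of the titles do not pair the libraries (22 of 46 correlations over 0.1). With the title number as a block 1 member was called for Kit+Sca1- against MacHigh, as were 7730 of 11599 rows. Without the 3 libraries of prefix N, chosen after seeing the data, 7 were called for Kit+Sca1+ against MacHigh and 1 for Kit+Sca1- against Kit-Sca1-. Fits of only the 2 groups called 7 for Kit+Sca1+ against Kit-Sca1-, where 4582 of 11079 rows were called, 2252 of them higher. Leaving out 1 library at a time gave 0 to 2 for Kit+Sca1- against MacHigh (2 without Kit+Sca1- replicate 4), 2 to 6 for Kit+Sca1+ against MacHigh, 2 to 6 against Kit-Sca1- and 5 to 7 against Kit+Sca1-. For fits with libraries left out, the shares of all rows called are not given here. Over the same left-out libraries Klf1 in Kit+Sca1+ ran from -0.05 to 0.46 against MacHigh and from -0.01 to 0.4 against Kit+Sca1-, reversed in both without Kit+Sca1+ replicate 2, and with quantile normalization it was -0.26 against Kit+Sca1-, none called. Car2 in Kit+Sca1+ against MacHigh lost its call without any of 7 single libraries (adjusted p 0.0568 to 0.128), with no filter (0.0663) and in a fit of the 2 groups (0.0813). The cause of these changes was not tested. Rescaling libraries to the same FPKM sum moved the median of all rows from 0.03 to 0.32 for Kit+Sca1- minus MacHigh and the share of calls that were higher from 46.1% to 75.7% for unsorted against MacHigh, 61.1% to 91% against Kit-Sca1-, 50.3% to 37.1% against Kit+Sca1- and 47.7% to 59% against Kit+Sca1+. Members under 1 FPKM are limited by unknown depth.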
